A study of Mus musculus with 10 samples.

Results

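The livers of 3 F1 males born to BFMI mothers and sired by B6N males (matBFMI) were compared with those of 1 male and 1 female of the inbred paternal strain B6N. BFMI stands for the obese Berlin Fat Mouse, here the inbred strain BFMI860-12/Hber, and B6N is the lean strain C57BL/6NCrl. Each matBFMI male carried a maternal BFMI genome beside a paternal B6N genome on every autosome. Their mitochondria and X chromosome came from BFMI and their Y chromosome from B6N, which is why only autosomal genes are described. Of the 41388 genes in the tables, the 17043 autosomal genes with 10 or more counts in 2 or more of the 5 libraries were taken. The series holds 10 libraries. The others are 1 BFMI male, 1 BFMI female and 3 F1 males of the opposite cross with a BFMI father (patBFMI). They enter only the fit and are quoted beside some values. All mice were 10 weeks old, and the 3 matBFMI males had 3 different mothers. The matBFMI and patBFMI males ate a high fat diet from day 21 to day 70. For the inbred mice a standard breeding diet stands in the sample records, whereas the study's text says that they were raised on the high fat diet. If the records hold, diet and group cannot be told apart in any value below.

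The liver builds fatty acids, triglycerides and cholesterol, makes most plasma proteins, and houses resident macrophages, the Kupffer cells. Genes of fatty acid and cholesterol synthesis are switched on by the SREBP factors, which respond to insulin and to low sterol. In an F1 animal a gene whose expression differs between the parental strains through its own regulatory sequence is read from a pair of unlike alleles.

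Libraries held 51596405 to 56457087 reads assigned to genes in matBFMI, and 46988713 (female) and 55008330 (male) in B6N. At this similar depth the B6N libraries had a count for 34572 and 31205 genes, against 22415 to 26694 in matBFMI. A set of 13 unnamed gene models that took 3.85% and 2.82% of the B6N reads took 0.552%, 0.0209% and 0.00793% of those of matBFMI 1, 2 and 3. The share also differed within the other groups. It was 1.62% and 2.32% in the BFMI male and female, and 2.72%, 0.0472% and 0.0282% in patBFMI 1, 2 and 3. Those patBFMI libraries had a count for 32421, 22095 and 23490 genes. The largest of the 13 models, Gm10800, was at 22310 and 16570.5 CPM (a gene's count relative to the TMM-scaled library total) in B6N and at 3367, 121 and 45.6 CPM in matBFMI. None of the 13 was called, and matBFMI 1 lay far above the other matBFMI males. These models were picked after their values were seen, and their part in the results was not tested. All matBFMI libraries ran on lane 6 and both B6N libraries on lane 4, so lane and group cannot be told apart. Hepatocyte markers summed to 86729 to 93551 CPM in matBFMI and 92189 to 106543 CPM in B6N, and edgeR called none of the 11, with 2 at an unadjusted p of 0.05, while DESeq2 called 1 lower.

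Of the 17043 genes, 718 differed at an adjusted p of 0.05 in edgeR's quasi-likelihood test, which is 4.21%. Higher in matBFMI were 410 genes (2.41%), and 308 were lower (1.81%). The fit held a term for sex beside the 4 groups, since matBFMI were all male, and a positive log2 fold change means a higher level in matBFMI. All 3 matBFMI libraries lay on the same side of both B6N libraries for 684 of the 718 called genes and for 45.3% of all genes tested. Genes that fell had larger changes, with a median of 1.25 on the log2 scale without its sign, against 0.91 for genes that rose. This comparison was not matched for expression level, and the falls include the 24 pancreatic genes described below. The direction also changed with the level of expression. Of the 4444 genes under 1 CPM, 19 rose and 36 fell, and their median log2 fold change was -0.41. From 1 to 5 CPM, 59 of 3579 genes rose and 138 fell, with a median of -0.05. Among the 1082 genes at 100 CPM or more, 61 rose and 20 fell, with a median of 0.17. With only 1 B6N library, the fit called 545 genes without the female and 103 without the male. Without matBFMI 2 it called 374 and without matBFMI 3 it called 350. Of the 686 called genes that could still be tested without the B6N male, 682 kept their direction and 62 were called again. On the quantile-normalised RPKM values, where the median of all genes shifted to -0.34, limma called 67 genes higher and 112 lower with a pseudocount of 1.

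**Figure D1:**
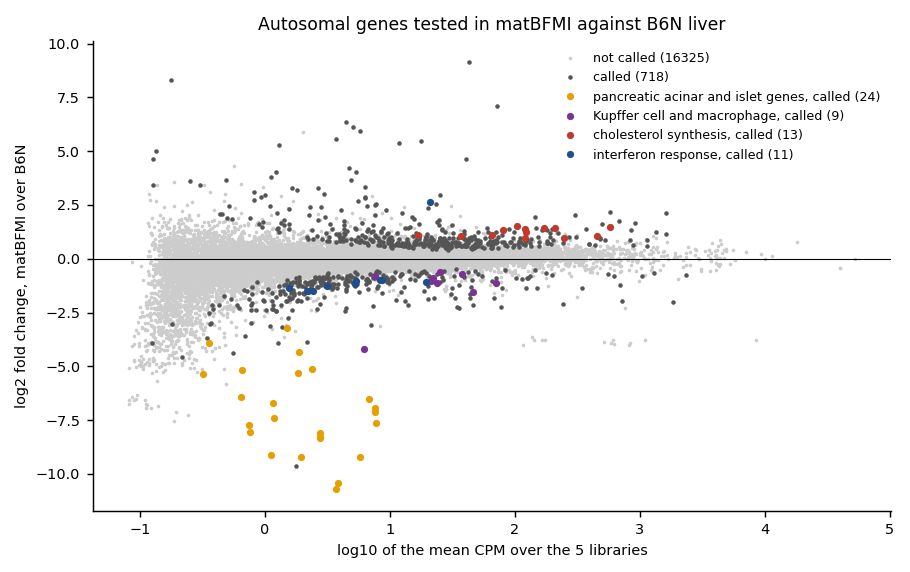
Log2 fold change of matBFMI over B6N (vertical axis) against the mean level over the 5 libraries (horizontal axis, log10 of CPM) for the 17043 autosomal genes tested, with 4 gene lists coloured. Called cholesterol synthesis genes sit above 0, Kupffer cell genes below 0, and the 24 called pancreatic genes include the lowest values of all.

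The 12 genes that rose most were higher in every matBFMI male than in both B6N mice, and several had under 1 CPM in B6N. Serpina3c, a serine protease inhibitor gene (GRCm38 chromosome 12, 104146382 to 104153870), was at 117, 116 and 129 CPM in matBFMI and at 0.572 and 1.00 CPM in the B6N female and male (log2 fold change 7.08, SE 0.24, edgeR adjusted p = 6.72e-07). The BFMI male and female had 204 and 181 CPM of it, so the matBFMI males lay between the inbred strains. Ctse, which encodes the protease cathepsin E (chromosome 1, 131638306 to 131675505), was at 16.5, 19.1 and 22.5 CPM against 0.449 and 0.408 CPM in B6N and 55.8 and 45.2 CPM in BFMI (log2 fold change 5.39, SE 0.24, adjusted p = 3.44e-06). Cyp46a1, a cholesterol hydroxylase known from brain, was at 22.5, 23.3 and 42.0 CPM against 0.613 and 0.724 CPM in B6N (log2 fold change 5.45, SE 0.39). Its BFMI values of 54.1 and 58.1 CPM were above those of every matBFMI male.

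A4gnt, a glycosyltransferase of gastric mucin (chromosome 9), had 7.66, 6.11 and 11.2 CPM in matBFMI and 0.184 and 0.0186 CPM in B6N (log2 fold change 6.13, SE 0.67). A pair of neighbouring vomeronasal receptor genes on chromosome 6 rose alike. Vmn2r20 was at 9.95, 10.2 and 8.20 CPM against 0.123 and 0.130 CPM, and Vmn2r21 at 6.85, 6.32 and 5.13 CPM against 0.143 and 0.0557 CPM. Reads of such near-identical relatives may be shared between them, which holds for the Mup, Serpina3, Amy2 and Gvin families too. Asic5, an acid-sensing ion channel gene, was at 41.4, 39.5 and 35.5 CPM against 5.15 and 4.66 CPM in B6N and 88.1 and 81.4 CPM in BFMI (log2 fold change 2.98, SE 0.17). Corin, which encodes the protease that activates atrial natriuretic peptide, was at 7.96, 7.25 and 8.09 CPM against 0.837 and 0.427 CPM (log2 fold change 3.66, SE 0.30).

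Cyp2c39, a cytochrome of the epoxygenase family, was at 61.2, 49.1 and 80.8 CPM in matBFMI, 10.1 and 1.80 CPM in the B6N female and male, and 227 and 471 CPM in the BFMI male and female (log2 fold change 4.66, SE 0.42, adjusted p = 0.000395). The patBFMI males had 33.1, 27.0 and 21.9 CPM. Mup5, a major urinary protein gene, Tspyl4 and the keratin gene Krt23 complete the 12 largest rises, with log2 fold changes of 2.86, 2.68 and 2.55. Tspyl4 differed from the rest in that the BFMI male, at 2.95 CPM, lay below all matBFMI males (7.19 to 8.48 CPM). The BFMI female, at 9.64 CPM, lay above them. All 12 remained called when any of the 5 libraries was left out.

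**Figure D2:**
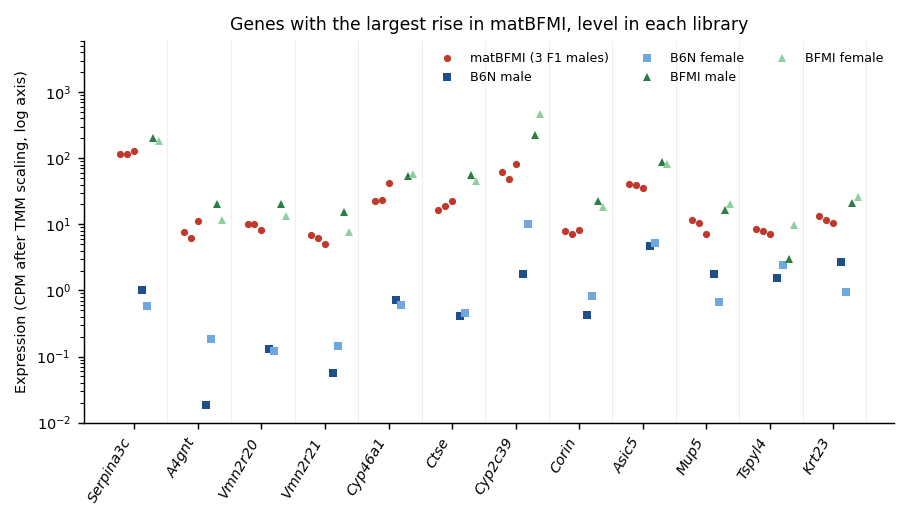
Level in each library (CPM on a log axis) of the 12 protein-coding genes with the largest rise in matBFMI, with circles for the 3 matBFMI males, squares for B6N and triangles for BFMI. Every matBFMI circle lies above both B6N squares of its gene.

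Some rises outside that list were as large, and were named after their values were seen. Rprl3, a gene for an RNase P-like RNA on chromosome 8, was at 65.9, 55.0 and 94.1 CPM in matBFMI and at 0.0613 and 0.148 CPM in B6N (log2 fold change 9.14, SE 0.40). H2-Ea-ps, the MHC class II E alpha gene, which is defective in C57BL/6 mice, was at 8.29, 7.97 and 5.89 CPM against 0.102 and 0.0928 CPM, and at 19.02 and 23.4 CPM in BFMI (log2 fold change 6.36, SE 0.30). Gm11512, a processed pseudogene on chromosome 11, was at 7.67, 7.45 and 7.73 CPM against 0.306 and 0.371 CPM in B6N (log2 fold change 4.23, SE 0.23). The BFMI male and female had 12.9 and 8.38 CPM of Gm11512. In patBFMI, whose mothers were B6N, it was at 0.374, 0.320 and 0.217 CPM. Whether its reads stem from a related gene elsewhere in the genome was not tested. These 3 genes also kept their calls without any 1 library.

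Called genes were spread over all autosomes, from 2.66% of the genes tested on chromosome 2 to 6.08% on chromosome 3. Those on chromosome 3 include Cpb1 and Amy2a1 to Amy2a5, which are among the pancreatic genes described below. Cut into windows of 5 Mb with 20 or more genes tested, they were denser at a few loci. The window from 100 to 105 Mb of chromosome 12 held 13 called genes of 65, 8 higher and 5 lower, and 10 of them were Serpina3 genes or pseudogenes or their neighbours Serpina5 and Serpina9. Within it, Serpina3m, at 1149.98, 1107 and 1103 CPM against 477 and 436 CPM, rose by a log2 fold change of 1.36 (SE 0.15). Serpina3h, at 7.28, 7.80 and 10.6 CPM against 0.388 and 0.483 CPM, rose by 4.05 (SE 0.28). Serpina3a had a log2 fold change of 4.05 as well (SE 0.51), at 1.29 to 2.95 CPM. Serpina3f and Serpina3g went the other way, at -0.86 and -0.78, so the cluster did not move in 1 direction. Serpina3m and Serpina3a lost their calls without the B6N male, and Serpina3f and Serpina3g without matBFMI 1, matBFMI 2 or the B6N male, Serpina3g also without the B6N female.

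On chromosome 7 the window from 105 to 110 Mb held 8 called genes of 45, all lower. They included Gvin1, a very large interferon-inducible GTPase, and its neighbour Gm4070, both named after their values were seen. Gvin1 was at 17.9, 12.0 and 16.4 CPM in matBFMI, 61.6 and 70.0 CPM in B6N and 29.2 and 18.3 CPM in BFMI (log2 fold change -2.31, SE 0.21). Gm4070 followed at 18.2, 12.0 and 15.7 CPM against 59.6 and 66.1 CPM. Both kept their calls whichever library was left out. In the window from 60 to 65 Mb of chromosome 4, which holds the Mup genes, 9 of 69 genes were called, 6 higher and 3 lower. The window from 40 to 45 Mb of chromosome 6 held 4 called genes of 21, all lower, among them the pancreatic gene Prss2.

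Genes of cholesterol synthesis rose together. Of the 22 members tested, 13 were higher, none was lower, and 21 had a value above 0 (median log2 fold change 1.06, against 0.01 over all genes tested). The called genes span early and late steps of the pathway. Hmgcs1, which makes HMG-CoA, was at 636, 734 and 895 CPM in matBFMI against 375 and 248 CPM in the B6N female and male (log2 fold change 1.48, SE 0.25, adjusted p = 0.0118). Fdps, which makes farnesyl diphosphate, was at 192, 196 and 284 CPM against 103 and 86.7 CPM (1.42, SE 0.25). Lss, which closes the sterol ring, was at 116, 116 and 171 CPM against 70.9 and 46.9 CPM (1.52, SE 0.22). Msmo1, a sterol methyl oxidase, was at 269, 255 and 304 CPM against 133 and 96.7 CPM (1.43, SE 0.17, adjusted p = 0.00218).

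In each of these 4 genes the lowest matBFMI male was above both B6N mice. BFMI was not uniformly high, with 63.3 and 97.2 CPM of Lss and 86.0 and 116 CPM of Fdps in the male and female, below all matBFMI males. For Hmgcs1 the BFMI mice, at 678 and 732 CPM, fell within the matBFMI range. Further called members were Sqle, Fdft1, Hsd17b7, Pmvk, Mvk, Dhcr7, Cyp51 and Idi1, with log2 fold changes of 0.96 to 1.36. Mvd, at 1.98, did not pass (adjusted p = 0.0858), and Ggps1, at -0.28, was the only member with a negative value. The counts rested on the B6N male. Without him the fit, which then takes the sex difference from BFMI alone, called 0 of the 22, although all 13 kept their direction and 16 passed an unadjusted p of 0.05. Without the B6N female it called 12, and without matBFMI 1, 2 or 3 it called 13, 11 and 10.

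Fatty acid and triglyceride synthesis moved the same way, with 11 of 33 members higher, none lower and a positive log2 fold change in all 33 (median 0.77). Fasn, fatty acid synthase, was at 1865, 2226 and 2599 CPM in matBFMI and 932 and 457 CPM in the B6N female and male (log2 fold change 2.12, SE 0.31, adjusted p = 0.00565). Thrsp, a lipogenic regulator also known as Spot14, was at 691, 682 and 951 CPM against 417 and 161 CPM (2.18, SE 0.42). Gpam, the mitochondrial acyltransferase that starts triglyceride assembly, was at 748, 988 and 1066 CPM against 329.9 and 284 CPM (1.77, SE 0.25). Acly, which supplies cytosolic acetyl-CoA, was at 1008, 1073 and 1488 CPM against 613 and 382 CPM (1.68, SE 0.33).

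For all 4 genes the matBFMI males were above both B6N mice, and the B6N male was the lowest of the 5. Srebf1, which encodes SREBP1, was at 201, 186 and 284 CPM against 144 and 90.2 CPM (1.34, SE 0.21, adjusted p = 0.00776). The other called members were Acss2 (1.63), Aacs (1.42), Acacb (1.40), Pgd (1.26), Me1 (1.03) and Dgat2 (0.62). Scd1, a desaturase, did not pass, at 0.78 (adjusted p = 0.274), with matBFMI at 13118 to 30411 CPM and B6N at 11799 and 13452 CPM. In BFMI the levels of Fasn were 853 and 1129 CPM and those of Thrsp 149 and 306 CPM, below every matBFMI male. The patBFMI males had 614, 1107 and 941 CPM of Fasn. Without the B6N male 0 of the 33 were called, 15 passed an unadjusted p of 0.05, and the 11 kept their direction. Without the B6N female 7 were called, and without matBFMI 1, 2 or 3 it was 9, 7 and 5.

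**Figure D3:**
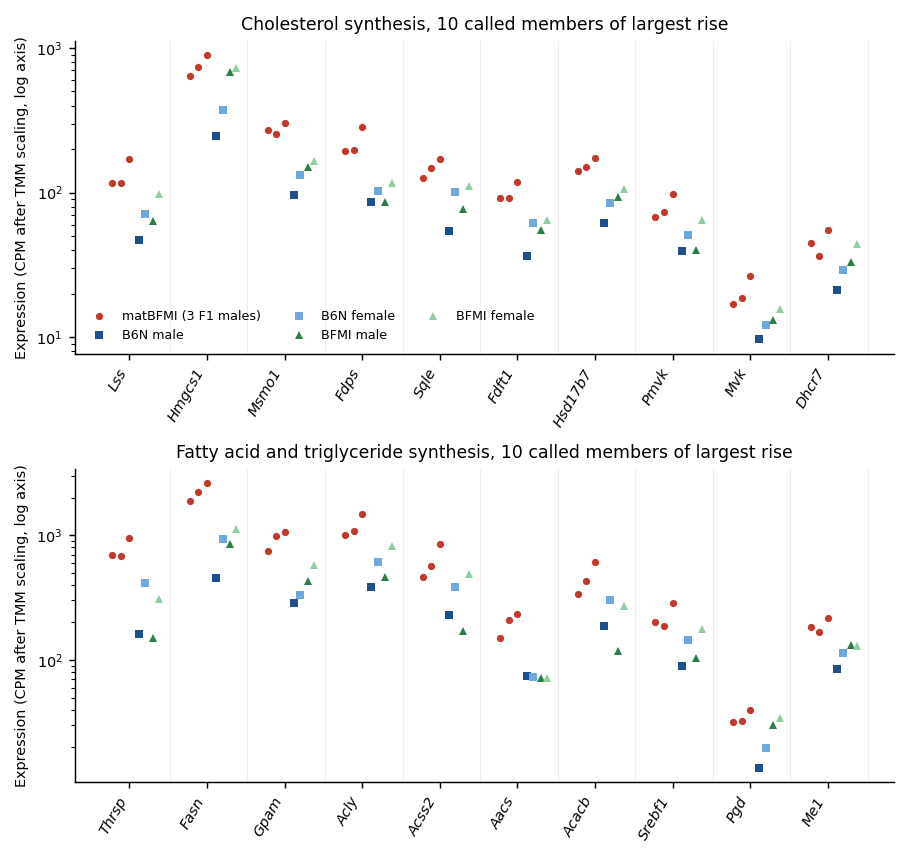
Level in each library (CPM on a log axis) of the 10 called members with the largest log2 fold change in cholesterol synthesis (upper panel) and in fatty acid and triglyceride synthesis (lower panel), in matBFMI (circles), B6N (squares) and BFMI (triangles). The matBFMI circles lie above both B6N squares of every gene shown, and the B6N male lies below the female in every gene but Aacs.

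Since these genes moved together, the 250 bases before their start sites were searched on both strands for 4 motifs in the RefSeq promoters (GRCm38.p6). The sterol regulatory element was searched as ATCACNNNA, the CCAAT box as CCAAT, the E-box as CACGTG and the D-box as TTATGNAA. Of the 9 called cholesterol synthesis genes with a promoter entry all 9 held a CCAAT box, and of the 10 called fatty acid and triglyceride genes 8 did, against 37.5% of the 27025 genes in the table. An E-box was found in 2 of the 9 (Dhcr7 and Hsd17b7) and 0 of the 10, against 6.86% of all genes. A D-box was found in 0 of the 9 and 0 of the 10. The sterol element was found in 3 of the 9 (Cyp51, Dhcr7 and Msmo1) and 2 of the 10 (Fasn and Thrsp), against 9.73% of all genes. A match in letters is a description and not a site shown to be bound. The stretch from 150 to 31 bases before the start is shown for 4 of these 5 genes, with the element in capitals.
Fasn (chr11:120824578-120824697, minus strand): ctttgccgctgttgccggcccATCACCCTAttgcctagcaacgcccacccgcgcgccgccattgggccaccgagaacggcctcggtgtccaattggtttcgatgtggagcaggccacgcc
Thrsp (chr7:97417581-97417700, minus strand): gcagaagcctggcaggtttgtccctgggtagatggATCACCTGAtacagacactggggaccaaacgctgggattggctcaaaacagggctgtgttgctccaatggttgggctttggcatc
Msmo1 (chr8:64733609-64733728, minus strand): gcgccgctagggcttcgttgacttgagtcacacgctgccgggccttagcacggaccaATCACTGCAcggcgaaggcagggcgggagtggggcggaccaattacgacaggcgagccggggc
Cyp51 (chr5:4104728-4104847, minus strand): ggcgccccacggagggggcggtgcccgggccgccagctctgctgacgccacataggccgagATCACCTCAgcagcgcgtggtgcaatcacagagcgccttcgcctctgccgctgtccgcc
The element starts 129, 115, 93 and 89 bases before the start of Fasn, Thrsp, Msmo1 and Cyp51, and in Msmo1 it shares 2 bases with a CCAAT box.

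Clock genes, which set the daily rhythm of liver metabolism, gave 4 higher and 0 lower members of 20 tested, with a median log2 fold change of 0.49. Per2, a repressor in the core loop, was at 30.4, 23.4 and 25.1 CPM in matBFMI and 9.80 and 11.1 CPM in B6N (log2 fold change 1.15, SE 0.18, adjusted p = 0.00791). Per3 was at 31.4, 23.7 and 38.4 CPM against 15.1 and 10.6 CPM (1.73, SE 0.30), and in BFMI it was lower than in B6N, at 3.52 and 8.50 CPM. Cry2 and the nuclear receptor gene Rora rose by 0.88 and 0.62. Dbp, a clock output factor, did not pass at 1.53 (adjusted p = 0.115), and Arntl, the activator of the loop, had a value of -0.29 (adjusted p = 0.717). Time of dissection is not given in the sources used here. Per2, Per3, Cry2 and Rora all lost their calls without the B6N male, when Bhlhe41 was the 1 member called, and without matBFMI 2 or 3 it was 2 each.

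Only 3 called clock genes had a promoter entry, and 0 of the 3 held an E-box. Per3 alone of them held a D-box, the element bound by Dbp and its relatives, which 3.63% of all genes held. Per3 has a pair of D-boxes, 205 and 158 bases before the start, in capitals in the stretch shown, which begins 220 bases before it.
Per3 (chr4:151044766-151044885, minus strand): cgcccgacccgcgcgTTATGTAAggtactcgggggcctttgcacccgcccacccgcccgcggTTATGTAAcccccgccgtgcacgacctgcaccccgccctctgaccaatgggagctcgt

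Genes of amino acid breakdown leaned upward, with 4 of 41 higher (9.76%), none lower and 38 positive values (median 0.42). Over all genes tested 2.41% were called higher. The median of all genes tested was 0.09 from 20 to 100 CPM and 0.17 at 100 CPM or more. The part of that shift in this list was not tested. Gpt2, a mitochondrial alanine aminotransferase, was at 594, 519 and 684 CPM against 308 CPM in each B6N mouse (log2 fold change 0.99, SE 0.20). Bckdhb, a subunit of the branched-chain ketoacid dehydrogenase, was at 79.7, 71.2 and 72.8 CPM against 52.5 and 40.1 CPM (0.81, SE 0.14). Gpt and Prodh rose by 0.73 and 0.74. In bile acid metabolism 2 of 25 genes rose (8.0%), against 2.41% of all genes tested. Cyp8b1, which sets the share of cholic acid, was at 396, 341 and 452 CPM against 151 and 201 CPM (1.01, SE 0.20), and Fgfr4, the FGF15 receptor, rose by 0.70. Without the B6N male none of these 6 was called, without the B6N female Gpt2, Gpt, Prodh and Cyp8b1 lost their calls, and without matBFMI 3 Bckdhb alone was called.

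Xenobiotic enzymes changed gene by gene. Over all genes tested 4.21% were called. The share was 6.67% in the carboxylesterase family, 12.9% in the Cyp2 and Cyp3 cytochromes and 8.11% in the conjugation enzymes. Ces1b, a carboxylesterase, was at 205, 194 and 184 CPM against 89.0 and 53.7 CPM in B6N and 222 and 448 CPM in BFMI (log2 fold change 1.92, SE 0.14, adjusted p = 0.000117), and kept its call without any library. It was the only gene of 15 in its family that edgeR called, while DESeq2 called 3 higher and 1 lower and edgeR without the B6N male called 2 higher. Of 31 Cyp2 and Cyp3 cytochromes 3 rose, which were Cyp2c39, Cyp2a5 (1.19) and Cyp2d22 (0.59), and Cyp2d40 fell by 0.91 on the log2 scale. Of 37 conjugation enzymes edgeR called 3 higher and none lower, with 2 lower at an unadjusted p of 0.05, and DESeq2 called 7 higher and 2 lower. An example was Gstm6 at 93.0, 129.5 and 129 CPM against 47.3 and 48.7 CPM (1.37, SE 0.26). Gstt3 was called at 1.57, yet its matBFMI values of 27.8, 37.3 and 38.9 CPM lay below the 40.8 CPM of the B6N female and above the 11.6 CPM of the male. Apart from Ces1b and Cyp2c39, none of these was called without the B6N male.

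In glucose metabolism 2 of 30 genes fell and 1 rose, Pgd, which is also counted in the fatty acid list. In lipoprotein handling 2 of 26 fell and 1 rose. Over all genes tested 1.81% fell and 2.41% rose. G6pc, the catalytic subunit of glucose-6-phosphatase, was at 176, 301 and 197 CPM against 497 and 548 CPM (log2 fold change -1.37, SE 0.27, adjusted p = 0.0226). Igfbp1, a secreted binder of insulin-like growth factors, was at 19.01, 21.1 and 32.3 CPM against 247 and 66.6 CPM (-2.23, SE 0.53). Igfbp2, of the same family, was at 83.6, 85.7 and 82.7 CPM against 239.8 and 263 CPM, and at 14.1 and 30.7 CPM in BFMI (-1.37, SE 0.32). All 3 had every matBFMI male below both B6N mice. Sort1, a lipoprotein sorting receptor, was at 6.54, 8.36 and 9.37 CPM against 13.3 and 24.1 CPM (-1.54, SE 0.20), and Lpl fell by 1.32. Lrp1, an endocytic receptor, rose by 0.88. Igfbp1 and Igfbp2 lost their calls without any of the 3 matBFMI males, and G6pc without matBFMI 1, matBFMI 3 or either B6N mouse. Igfbp2, Sort1, Lpl and Lrp1 were not called without the B6N male.

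Genes that differ between the sexes depended on which B6N mouse was used. Mup20, the male pheromone darcin, was at 1282, 1017 and 818 CPM in matBFMI, between 6071 CPM in the B6N male and 126 CPM in the B6N female (log2 fold change -1.99, SE 0.47). Without the B6N male its value was 0.36, so its direction turned. C6, a complement gene, had the same order, at 120.2, 96.9 and 74.0 CPM against 288 CPM in the B6N male and 31.04 CPM in the female (-1.37, SE 0.26). Egfr, the EGF receptor, was at 373, 677 and 531 CPM against 637 and 1277 CPM in the B6N female and male (-1.21, SE 0.24). Of 17 male-biased genes edgeR and DESeq2 each called 2 lower, and of 17 female-biased genes neither called any, with 3 at an unadjusted p of 0.05 in each. With the B6N male left out, 3 male-biased genes were called higher and none lower, and 4 female-biased genes were called lower. Neither C6 nor Egfr was called without the B6N male.

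Macrophage genes fell. Of 13 autosomal markers of Kupffer cells and macrophages, 9 were lower in matBFMI and none was higher, with a median log2 fold change of -0.82. Summed over the list they came to 286, 250.4 and 262 CPM in matBFMI, 522 and 519 CPM in B6N, 312 to 371 CPM in BFMI and 312 to 331 CPM in patBFMI. In bulk liver fewer macrophages and less RNA per macrophage cannot be told apart. Marco, a scavenger receptor, was at 0.859, 1.15 and 0.526 CPM in matBFMI and at 6.17 and 22.5 CPM in the B6N female and male (log2 fold change -4.22, SE 0.54, adjusted p = 0.00367). Lyz2, lysozyme, was at 31.6, 29.6 and 24.7 CPM against 60.9 and 83.8 CPM (-1.56, SE 0.12, adjusted p = 0.00017). Cd5l, a secreted macrophage protein, was at 49.2, 41.5 and 48.2 CPM against 108 and 105 CPM (-1.11, SE 0.13).

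The 3 complement C1q chains moved together. C1qb was at 15.0, 14.0 and 15.0 CPM against 32.4 and 29.8 CPM (log2 fold change -1.01, SE 0.10), and C1qc and C1qa fell by 0.89 and 0.64. Adgre1, which encodes the F4/80 antigen, Csf1r, the receptor that macrophages need to survive, and Folr2 fell by 1.14, 0.71 and 0.82. Clec4f, the lectin that defines Kupffer cells in mouse liver, did not pass, at 73.9, 61.5 and 68.5 CPM against 125 and 95.9 CPM (-0.46, adjusted p = 0.0817). Cd163 had a positive value, 0.54 (adjusted p = 0.199). The calls of Lyz2 and C1qb remained without the B6N male, and 9 of 9 kept their direction. Without the female 10 of 13 were called, and without matBFMI 1, 2 or 3 it was 8, 7 and 8.

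Markers of other cell types gave few calls, where 4.21% of all genes tested were called. Of 14 stellate cell and fibroblast genes neither edgeR nor DESeq2 called any, none passed an unadjusted p of 0.05, and their sums overlapped, at 459 to 500.1 CPM against 441 and 559 CPM. Of 12 genes of sinusoidal endothelium only Lyve1 was lower, by 1.25 on the log2 scale. Of 11 lymphocyte genes neither tool called any, 5 passed an unadjusted p of 0.05 in edgeR, and their median log2 fold change was -1.005, although their sum was higher in matBFMI, at 15.1 to 32.0 CPM, than in B6N, at 12.8 and 13.2 CPM. Of 7 erythroid genes Hba-a1 and Hba-a2 were higher, at 0.71 and 0.64, and the erythroid sums were 426 to 479 CPM in matBFMI and 213 and 316 CPM in B6N. Of 8 cholangiocyte genes Pkhd1 was higher, by 1.02 on the log2 scale, while 7 had negative values and the median was -0.53. Of 6 adipocyte and muscle genes edgeR called none, with 4 higher at an unadjusted p of 0.05, and DESeq2 called 3 higher. Their median log2 fold change was 3.01, and they summed to 22.8, 3.21 and 2.12 CPM in matBFMI 1, 2 and 3 against 2.08 and 1.17 CPM in B6N. Pkhd1 was not called without the B6N male. Lyve1, Hba-a1 and Hba-a2 were not called without matBFMI 2, matBFMI 3 or either B6N mouse.

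Interferon response genes were lower as well, with 10 of 38 called lower, 1 called higher and 34 negative values (median -0.82). In 32 of the 38 all matBFMI males were below both B6N mice, and in 2 they were above both. Over all genes tested, 45.3% had the matBFMI males wholly above or wholly below. Usp18, which dampens interferon signalling, was at 3.88, 2.87 and 3.36 CPM against 8.84 and 7.24 CPM (log2 fold change -1.18, SE 0.17, adjusted p = 0.00555). Ifi47, an immunity-related GTPase, was at 14.8, 12.0 and 15.6 CPM against 23.95 and 30.98 CPM (-1.08, SE 0.17). Gbp2, a guanylate-binding protein gene, was at 4.03, 2.99 and 3.32 CPM against 9.99 and 6.66 CPM (-1.05, SE 0.18). Ifi27l2a, Oasl2, Zbp1, Oas1g, Ifi44, Trim30a and Gbp3 were the other 7, with values of -0.97 to -1.51.

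The exception was Gbp11, which rose to 40.9, 23.8 and 29.7 CPM from 5.94 and 4.44 CPM in B6N, and stood at 59.1 and 49.5 CPM in BFMI (log2 fold change 2.63, SE 0.34). Many of these genes are expressed in macrophages, whose markers were lower in the same libraries, and the part of that in the result was not tested. Without the B6N male 0 of the 38 were called lower, 22 were lower at an unadjusted p of 0.05, and the 10 kept their direction. Without the B6N female 4 were called lower, and without matBFMI 1, 2 or 3 it was 11, 5 and 4.

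**Figure D4:**
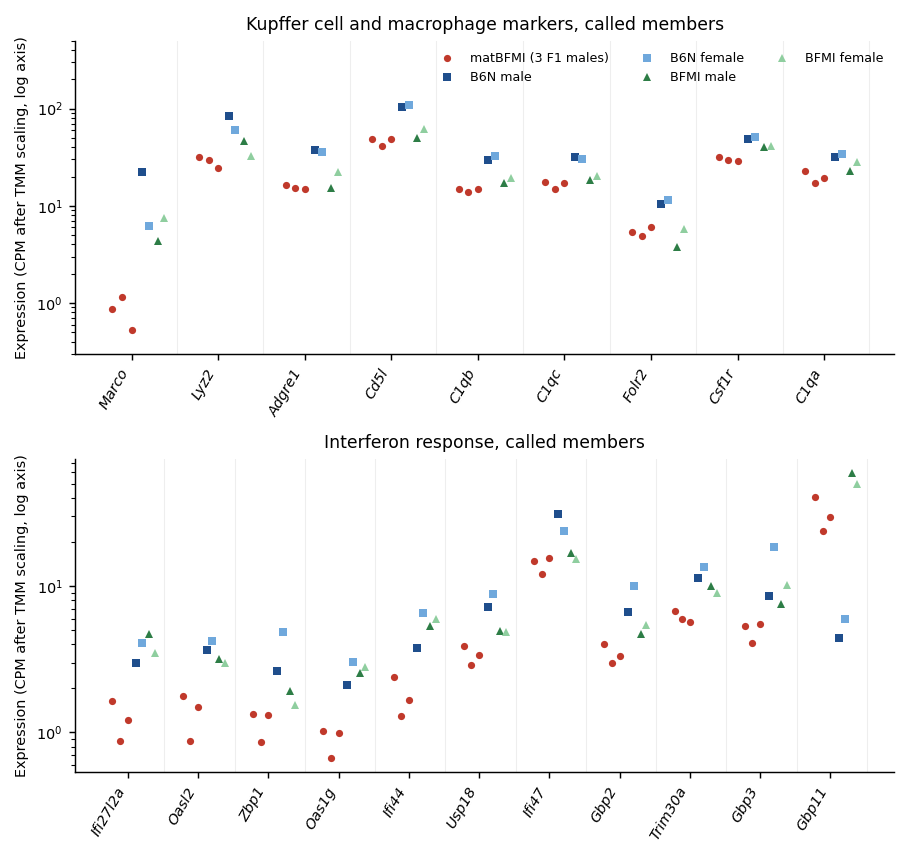
Level in each library (CPM on a log axis) of the called macrophage markers (upper panel) and the called interferon response genes (lower panel) in matBFMI (circles), B6N (squares) and BFMI (triangles). All matBFMI circles lie below both B6N squares, with Gbp11 as the exception in the lower panel.

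The acute phase list gave 7 lower and 1 higher of 27 (median -0.52). It holds genes of proteins that hepatocytes secrete in inflammation, and also Il1r1 and Nlrp12, which do not encode such proteins. Saa2, a serum amyloid A gene, was at 5.38, 3.33 and 3.51 CPM against 9.60 and 15.1 CPM in B6N (log2 fold change -2.21, SE 0.35, adjusted p = 0.00884), and at 53.0 and 15.1 CPM in BFMI. Hpx, hemopexin, which binds free heme, was at 1931, 1609 and 2009 CPM against 3146 and 3045 CPM (-0.73, SE 0.14). Itih4, an inter-alpha-trypsin inhibitor chain, was at 1003, 993 and 1039.9 CPM against 1771 and 1680.4 CPM (-0.67, SE 0.12). Saa1, Saa3, the interleukin 1 receptor Il1r1 and Nlrp12 were also lower. With the B6N male left out the log2 fold change of Il1r1 went from -1.38 to -0.10, and that of Nlrp12 turned from -0.99 to 0.0091. Lbp, which binds lipopolysaccharide, was the 1 that rose, at 96.5, 101.2 and 88.8 CPM against 70.8 and 59.9 CPM in B6N and 234 and 238 CPM in BFMI (0.62, SE 0.13).

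Of these, Saa2 alone kept its call whichever library was left out. Counts of lower members were 2, 1 and 4 without matBFMI 1, 2 and 3, 10 without the B6N female and 2 without the B6N male. In complement and coagulation 3 of 37 were lower (8.11%, against 1.81% of all genes tested), which were C6 and the twin genes C4a and C4b. C4b was at 775, 730.2 and 925 CPM against 1246 and 1494 CPM in B6N and 258 and 263 CPM in BFMI (log2 fold change -0.81, SE 0.15). The matBFMI males thus lay between the strains for C4b, and not for Saa2, where they were below both. C4b lost its call without matBFMI 1, matBFMI 2 or the B6N male.

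The largest falls were not of liver genes. Of the 12 protein-coding genes with the largest fall, 11 encode digestive enzymes of the exocrine pancreas. Cel, carboxyl ester lipase, and Cpb1, carboxypeptidase B1, had 0 counts in all matBFMI libraries, and 15.5 and 3.14 CPM, and 16.3 and 2.75 CPM, in the B6N female and male. Against a floor of 3 counts over the 3 matBFMI libraries they were at least 512-fold and at least 524-fold lower. Pnlip, pancreatic lipase, had 1 count in the 3 matBFMI libraries and 1175 and 250 counts in the B6N female and male, a ratio of 2363 with a counting interval of 424 to 93337. The amylase gene Amy2a3 was at 0.056, 0 and 0.0188 CPM against 33.3 and 4.94 CPM.

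A list of 35 pancreatic genes, chosen after these values were seen, summed to 17.0 to 19.3 CPM in matBFMI, 317 CPM in the B6N female and 62.7 CPM in the B6N male. BFMI stood at 18.4 and 30.5 CPM and patBFMI at 24.6 to 28.5 CPM. Of the 26 tested, 24 were called lower, and with the list set aside 675 genes were called. Without the B6N female 1 of the 26 was called, since most then lacked 10 counts in 2 libraries, and without the B6N male none was. Protein-coding autosomal genes were searched for at most 3 counts in one group and 30 or more in every library of the other. All 13 found were lower in matBFMI, and none was higher. Other gene types were not searched.

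Marco was the remaining gene of those 12. Further falls, named after their values were seen, were in genes of liver. Fgl1, a hepatokine, was at 102, 77.5 and 86.9 CPM against 521 and 434 CPM in B6N (log2 fold change -2.11, SE 0.24). Lepr, the leptin receptor gene, was at 4.76, 4.67 and 3.87 CPM against 42.5 and 14.1 CPM, with 5.65 and 5.34 CPM in BFMI (-2.13, SE 0.32). Vnn1, a pantetheinase, was at 19.9, 12.4 and 16.9 CPM against 48.0 and 68.7 CPM (-1.81). Fgl1 and Vnn1 lost their calls without the B6N male, and Lepr kept its call throughout.

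Of the 31 genes that the study names for the reciprocal F1 males, a list drawn partly from these matBFMI libraries and so not independent evidence of direction, 3 were higher and 4 lower than in B6N. Fasn, Per2 and Cyp2c39 were the higher ones. Adgrf1, an adhesion receptor gene, was at 4.82, 5.56 and 7.58 CPM against 21.3 and 26.8 CPM in B6N and 0.210 and 0.569 CPM in BFMI (log2 fold change -1.97, SE 0.28). B3galt1, a glycosyltransferase gene, was at 10.6, 12.4 and 13.6 CPM against 22.7 and 53.4 CPM (-1.83, SE 0.25), and Il1r1 and Nlrp12 were the others. Neither Adgrf1 nor B3galt1 was called without the B6N male. Of 32 imprinted genes tested 9.38% were called, against 4.21% of all genes. Igf2r and Dhcr7, the latter also counted in cholesterol synthesis, rose by 0.61 and 1.07. Sgce, a paternally expressed gene, was at 2.71, 3.11 and 2.93 CPM against 6.37 and 6.64 CPM (-1.19, SE 0.16). Igf2r was called in no fit that left out 1 of the 5 libraries, and Sgce and Dhcr7 in none without the B6N male.

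Several lists held no called gene. These were lipid droplet and lipase genes (21 tested, median log2 fold change -0.04), mitochondrial beta-oxidation and ketogenesis (26, 0.16), ER stress (25, -0.24), iron handling (17, 0.07) and the ciliary Bardet-Biedl complex (14, -0.15). In that order 3, 4, 4, 3 and 2 genes passed an unadjusted p of 0.05 in edgeR, and DESeq2 called 1, 1, 1, 0 and 0. Bbs7, a subunit of the ciliary complex, was at 1.74, 1.91 and 1.86 CPM against 3.76 and 2.97 CPM in B6N and 1.24 and 1.22 CPM in BFMI (log2 fold change -0.78, SE 0.21, adjusted p = 0.0737). Over all genes tested 4.21% were called. In peroxisomal and omega oxidation Ehhadh and Abcd3 rose by 0.91 and 0.62 and Crot fell by 0.80, of 35 tested (8.57%). Of 28 cell cycle genes 24 had negative values (median -0.71), and 10 were lower at an unadjusted p of 0.05. In 15 all matBFMI males were below both B6N mice and in 2 above both, where 45.3% of all genes tested lay wholly on 1 side. Ccnb2 and Cdc20 were under 1 CPM in each of the 5 libraries. The median over all genes tested under 1 CPM was -0.41, and the part of that shift in this list was not tested. DESeq2 called 3 lower, as did edgeR without matBFMI 1, and the full edgeR fit called only Ccnb2, at 0.317, 0.258 and 0.300 CPM against 0.551 and 0.928 CPM. The MHC list held 2 higher genes of 26 (7.69%), H2-Q2 (1.28) and H2-Ab1 (0.59). The NRF2 list held 1 of 23 (4.35%), Me1, which is also counted in the fatty acid list. Without the B6N male Ehhadh, Crot, Ccnb2, H2-Q2, H2-Ab1 and Me1 lost their calls, Ccnb2, H2-Ab1 and Me1 also without any matBFMI male, Ehhadh and Crot without matBFMI 3, H2-Q2 without the B6N female, and Abcd3 in every such fit.

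**Figure D5:**
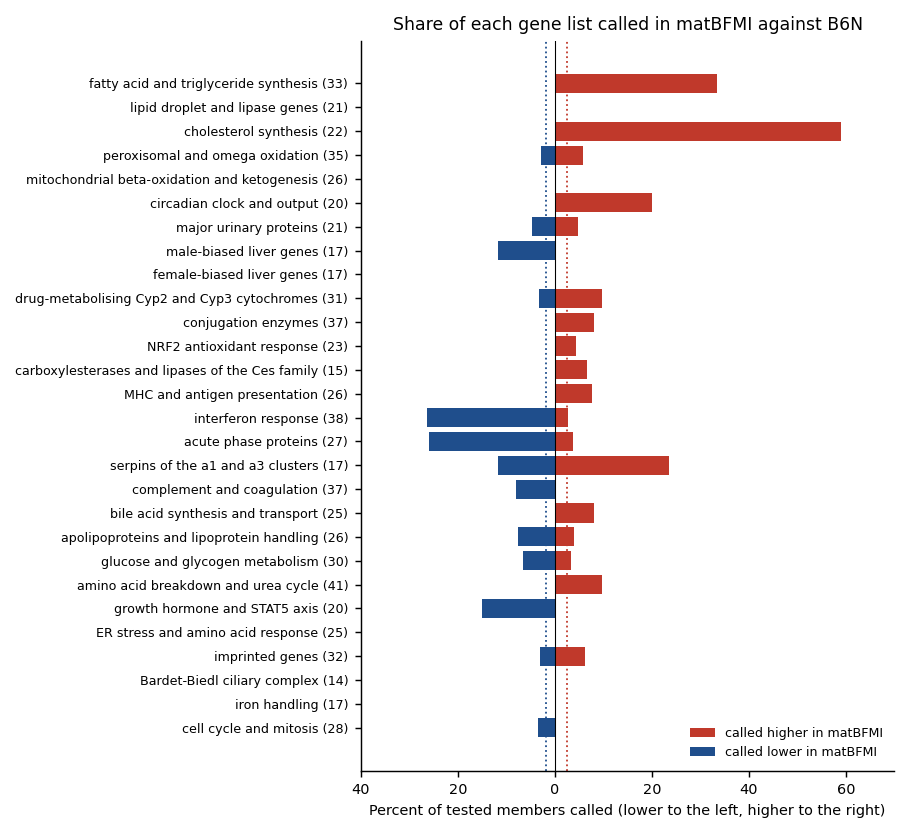
Share of tested members of each gene list called higher (right) or lower (left) in matBFMI against B6N, in percent, with the number tested in parentheses. Dotted lines mark the shares of all 17043 genes called higher (2.41%) and lower (1.81%), which cholesterol synthesis (13 of 22) and interferon response (10 of 38) exceed.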

How the data were processed

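Liver RNA of 10 mice was sequenced, and the deposited tables give each Ensembl gene a raw count of reads and an RPKM value. Per the labels and the study's methods the authors aligned trimmed reads to GRCm38, discarded duplicates, and then took union-mode counts for the genes of Ensembl release 81. The deposited counts are not normalized, and the authors computed the RPKM values after quantile normalization between samples. Named in the submitters' processing notes are Picard 1.99, Bowtie2 2.2.6, TopHat2 2.10 and Trimmomatic 0.32, whereas the study's text names BWA as aligner. The records give polyA RNA as molecule and a RiboZero protocol. Reads of BFMI alleles were aligned to a C57BL/6 genome, whose effect on the counts was not tested. A further 3 columns per table match none of the samples and were not used.

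Of 41388 genes, 40340 were matched by identifier to GENCODE M21 (GRCm38). Counts were fitted with edgeR 4.0.16 (R 4.3.3), TMM scaling and the quasi-likelihood test, in all 10 libraries, with sex and the 4 groups as terms, leaving 5 residual degrees of freedom. Genes with 10 or more counts in 2 or more of the 5 matBFMI and B6N libraries were fitted (17918, of which 17043 autosomal), and p was adjusted over all of them by Benjamini-Hochberg at a threshold of 0.05. The biological coefficient of variation was 17.1%, and most of the spread comes from F1 males. The standard error is the log2 fold change divided by the root of F. Depth was 46988713 to 56457087 assigned reads per library in the 5 libraries, and intervals and floors cover counting error only. Replicates are separate animals, and no pair within matBFMI or B6N held the same counts, with at most 0.776% of genes of 100 or more summed counts equal.

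Genes named are the 12 protein-coding genes per direction with the largest called change, 5 CPM or more in the higher group and separate libraries. Also named are up to 3 members of smallest p from each list. Up to 5 protein-coding genes per direction with almost no reads in one group were added. Other genes are list members, or were named after their values were seen. The members and lists were chosen with earlier results of these data known. Alternatives were other libraries and terms, scalings, filters, DESeq2 1.42.0, limma 3.58.1 on log2(RPKM + 1) and log2(RPKM + 0.1), and leaving out each matBFMI or B6N library or patBFMI 1. The code was tested on simulated data. Tables and figures used Python with pandas, numpy, scipy and matplotlib. Some genes are left out of the text.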

Additional observations from a re-analysis of the deposited data

How the results depend on the processing

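Over 21 alternatives, 75 of the 76 named genes called kept their direction in all, and 19 were called under all that tested them. The exception was Mup20, with a log2 fold change of -1.99, which ran from -2.57 to 0.36 when 1 library was left out and reversed, to 0.36, without the B6N male. Nlrp12, which is not among those 76, also turned without the B6N male. Leaving out 1 matBFMI or B6N library or patBFMI 1 at a time gave 103 to 872 called genes, 47 to 409 higher and 56 to 463 lower. The range of called members was 0 to 14 for cholesterol synthesis, 0 to 12 for fatty acid and triglyceride synthesis, 0 to 13 for interferon response, 1 to 10 for acute phase proteins and 2 to 10 for macrophage markers. The highest count of all genes, 872, came without patBFMI 1, and the lowest without the B6N male. With the 5 libraries alone and no sex term 1180 genes were called, 728 of them lower, 16 of interferon response. With a sex term in those 5 libraries interferon response gave 5. With the 8 males alone it gave 4, and fatty acid and triglyceride synthesis gave 7. DESeq2 called 1142 genes, 673 higher and 469 lower. Among them were 18 of fatty acid and triglyceride synthesis, 20 of interferon response and 12 of the acute phase list. On log2(RPKM + 1) limma called 179, 67 higher and 112 lower, with 4, 1 and 2 of those lists. On log2(RPKM + 0.1) it called 129, 64 higher and 65 lower, with 4, 1 and 2 of the lists and 8 of cholesterol synthesis, and the median of all genes was -0.68. With every gene of 1 count or more fitted 1935 were called, 968 higher and 967 lower, with 22 of fatty acid and triglyceride synthesis and 20 of interferon response. The cause of these differences was not tested. Fits on genes of 1 CPM or more, without pancreatic genes and on libraries thinned to the smallest depth were chosen after seeing the data and called 677, 675 and 711 genes. No paired analysis was possible because the matBFMI and B6N mice are separate animals that the labels do not match to each other. Only 2 B6N mice, 1 per sex, limit what these calls can show.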
